A study of Mus musculus with 12 samples.

Results

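The inducible kinases described here are the polo-like kinases Plk2 and Plk3, the serum- and glucocorticoid-regulated kinase Sgk1, the PIM kinases Pim1, Pim2 and Pim3, the salt-inducible kinase Sik1 and the pseudokinase Trib1. They were chosen by symbol, as kinases known as immediate-early genes. All 8 matched an Ensembl ID of the deposited table of 37310 genes, and all 8 passed the filter on low counts that left 16630. Total RNA was sequenced from lines of mouse embryonic fibroblasts (MEF), in 4 groups of 3 libraries that the design text calls biological triplicates. The groups were cells labelled as knockout for HP1γ (gene Cbx3) treated with PMA, the same cells untreated, cells of the line in which HP1γ was expressed again (HPg) treated with PMA, and HPg cells untreated. PMA (phorbol 12-myristate 13-acetate) was given at 100 nM in DMSO for 30 min to nearly confluent cells in medium with fetal calf serum. Whether untreated cells received DMSO was not given in the sources used here. Each genotype is 1 line, so line and genotype cannot be told apart, and p-values measure the spread between these cultures.

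PMA mimics diacylglycerol and activates protein kinase C, which signals through the RAF, MEK and ERK kinases to genes that need no new protein for their induction. Most such immediate-early genes encode transcription factors, and the genes described here are among the kinases of that class. PIM kinases are active as soon as they are made, so that their amount sets their activity. SGK1 and SIK1 also need phosphorylation by upstream kinases, PDK1 with mTORC2 for SGK1 and LKB1 for SIK1. TRIB1 has a kinase fold without a working catalytic site and acts as a scaffold that brings C/EBP transcription factors to the ubiquitin ligase COP1.

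The reference promoters of 6 of the 8 genes were in the RefSeq table (GRCm38.p6), and those of Trib1 and Sik1 were not analysed. Each sequence below is what lies before an annotated start, up to 250 bases, on the gene's own strand, and is shown because the genes differed in how far they moved with PMA. Capitals mark TGACGTCA (the cAMP response element, CRE), its core TGACG on either strand, the AP-1 site TGANTCA and the TATA motif TATAAA. Plk2 and Plk3 passed the edgeR test for an increase in both lines, and Pim1 in neither. Sgk1 passed in the knockout-labelled line only. In HPg cells its PMA-treated libraries also lay above the untreated ones (log2 fold change 1.39, edgeR adjusted p = 0.0615). The windows are chr13:110394794-110395043, plus strand for Plk2, chr4:117133964-117134213, minus strand for Plk3, chr10:21994416-21994665, plus strand for Sgk1 (the last of its 6 annotated starts) and chr17:29490535-29490752, plus strand for Pim1 (the first of its 2 starts, without the 32 bases nearest to it, which hold an annotated exon).
Plk2: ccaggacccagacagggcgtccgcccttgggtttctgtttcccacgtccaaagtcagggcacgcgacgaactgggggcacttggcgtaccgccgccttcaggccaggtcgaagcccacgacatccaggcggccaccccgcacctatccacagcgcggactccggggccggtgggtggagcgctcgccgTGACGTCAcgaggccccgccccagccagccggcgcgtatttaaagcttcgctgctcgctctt
Plk3: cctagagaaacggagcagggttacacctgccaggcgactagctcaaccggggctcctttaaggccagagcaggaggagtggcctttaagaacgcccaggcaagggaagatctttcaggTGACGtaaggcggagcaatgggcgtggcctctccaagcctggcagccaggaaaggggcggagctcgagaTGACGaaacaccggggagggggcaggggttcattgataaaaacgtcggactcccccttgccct
Sgk1: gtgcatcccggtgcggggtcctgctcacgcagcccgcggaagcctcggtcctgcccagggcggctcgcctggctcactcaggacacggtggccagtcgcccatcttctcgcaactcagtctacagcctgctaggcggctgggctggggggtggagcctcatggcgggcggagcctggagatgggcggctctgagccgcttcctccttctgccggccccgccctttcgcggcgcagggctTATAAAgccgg
Pim1: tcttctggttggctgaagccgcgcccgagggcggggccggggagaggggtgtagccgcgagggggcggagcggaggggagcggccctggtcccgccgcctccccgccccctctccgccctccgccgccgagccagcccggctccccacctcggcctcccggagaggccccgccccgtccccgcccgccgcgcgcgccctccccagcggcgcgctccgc

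The Plk2 window held 1 CRE, from 62 to 55 bases before the start. That motif was in 1.55% of the 32851 promoters of the table, over the same 250 bases and both strands. Plk3 had no full CRE and 2 copies of the core TGACG, which overlaps the CRE where both occur and was found in 17.8% of all promoters. Sgk1 had TATAAA 11 to 6 bases before the start shown and 28 to 23 bases before its start 4, a motif of 12.4% of all promoters, and TGACG at its start 2. The first Pim1 window held none of the 8 motifs searched, and neither did its second start nor Pim2. Pim3 had 2 copies of GCGNGGGCG, an EGR motif in 4.7% of promoters, and 1 κB motif (7.25%), and the remaining searches were for CCGGAA of ETS factors (12.0%), the AP-1 site (6.75%) and the CArG box of serum response factor (1.47%). Pim3, which passed the edgeR test with PMA in the knockout-labelled line, held none of the motifs marked in capitals. Starts 1, 3 and 5 of Sgk1 held none of the 8 motifs. These matches are descriptions of reference letters, and no test of binding or of a link to the response.

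The 8 genes were mostly short. Their median span in GENCODE M21 was 5579.5 bases, against 25080 over the 13635 tested protein-coding genes with an annotated 3′ UTR. Sgk1, on chromosome 10, is the exception with 117720 bases, because its upstream starts lie far from the last one. Copies of ATTTA, the core of the AU-rich elements that mark short-lived transcripts, occurred in the 3′ UTR of 7 of the 8 genes (87.5%) and of 68.1% of those 13635. Their median density was 3.02 per kb for the 8 genes and 1.25 per kb for the 13635. Pim1 and Pim3 had 5 copies each, Plk3 had 4, and Trib1 had none in 2398 bases.

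Total counts per library ran from 111458145 to 159929347, and the 8 genes took 0.0337% to 0.125% of them. The lowest count of a member was 153 (Pim2) and the highest 80609 (Sgk1). Cbx3 did not pass the edgeR test between the lines, with 36.5 ± 2.2 CPM (counts scaled to the TMM-adjusted library size) in knockout-labelled and 38.7 ± 2.45 CPM in HPg cells untreated (SD, n = 3 each, adjusted p = 0.838), and 31.8 ± 4.37 and 38.6 ± 4.66 CPM with PMA (adjusted p = 0.269). A count per gene says nothing of an altered Cbx3 transcript, so Cbx3 does not check the labels, and the line is called KO-labelled from here on. Of 14 fibroblast markers 12 had a mean of at least 1 CPM in every group, among them Col1a1, Vim and Fn1, while Thy1 and Lum were at or near 0. Several markers of other cell types were at or near 0 in all libraries. They included Myod1 of muscle, Epcam and Krt18 of epithelium, Cdh5 of endothelium, Ptprc of blood and Sox10 of glia. Others were not, such as Map2, which neurons use (169 to 339 CPM), and Cdh1 of epithelium (4.33 to 8.57 CPM). Of 5 endothelial markers, 3 had a mean of at least 1 CPM in PMA-treated knockout-labelled cells and 2 in each other group. In single libraries Tek, Kdr and Vwf of endothelium reached 5.14, 3.26 and 3.24 CPM. Cd68 of blood reached 3.14 CPM, Fabp4 of adipocytes 3.7 CPM and Des of muscle 1.34 CPM. Summed markers reached at most 1.38 CPM for muscle, 10.5 for epithelium, 9.87 for endothelium, 3.25 for blood and 3.71 for adipocytes. Of these, 1 of 1 tested muscle marker and 1 of 4 tested endothelial markers were higher in KO-labelled than in HPg cells with PMA. In that test 1.29% of all genes were higher. With the library number as a block, 1 of 2 tested blood markers and the 1 tested adipocyte marker were higher with PMA in both lines. That fit called 6.79% of all genes higher with PMA in KO-labelled and 8.62% in HPg cells. It called 1 of 4 epithelial and 1 of 13 fibroblast markers lower with PMA in HPg cells. Between PMA-treated lines it called 1 epithelial, 1 endothelial, 1 muscle and 2 fibroblast markers higher in KO-labelled cells. Between untreated lines 1 endothelial and 1 fibroblast marker were higher, and 1 of each lower. The part of these markers in the results was not tested. HPg library 2 detected 17822 genes, the fewest, against up to 20656 in others, and the noncoding RNAs Rpph1, Rn7sk and Rmrp took 8.59% to 19.2% of a library's counts. In bulk RNA, fewer cells that express a gene and less RNA per cell cannot be told apart.

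Sgk1 and Plk2 were the most abundant of the genes per length in every group, and Pim2 the least. Levels between genes are compared as CPM per kb of the longest coding transcript in GENCODE M21. With PMA, Sgk1 averaged 170 ± 49.6 CPM per kb in KO-labelled and 126 ± 22.6 in HPg cells, and Plk2 88.2 ± 1.34 and 63.7 ± 0.978 (SD, n = 3 each). Both stood apart from each other and from the rest with PMA, but overlapped each other in the untreated libraries of both lines. Pim3, Plk3 and Trib1 followed in the PMA-treated libraries of the KO-labelled line, at 30.9, 30.6 and 28.8 CPM per kb, and each overlapped its neighbour in that order. In untreated KO-labelled cells the order below Plk2 was Pim3 (16.2), Sik1 (8), Pim1 (7.14), Plk3 (3.75), Trib1 (3.31) and Pim2 (0.853), where Sik1 overlapped Pim1 and Plk3 overlapped Trib1. In untreated HPg cells Pim1 (7) and Sik1 (6.84) overlapped and would change places with the length of all exons in place of the longest transcript, and Plk3 (4.89) lay above Trib1 (3.4) without overlap. In PMA-treated HPg cells Plk3 (25.1), Pim3 (23.6), Trib1 (17.1) and Sik1 (11.4) followed Plk2, each overlapping the next. In mean level Plk3 and Trib1 were below Sik1 and Pim1 without PMA in both lines and above both with it.

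**Figure D1:**
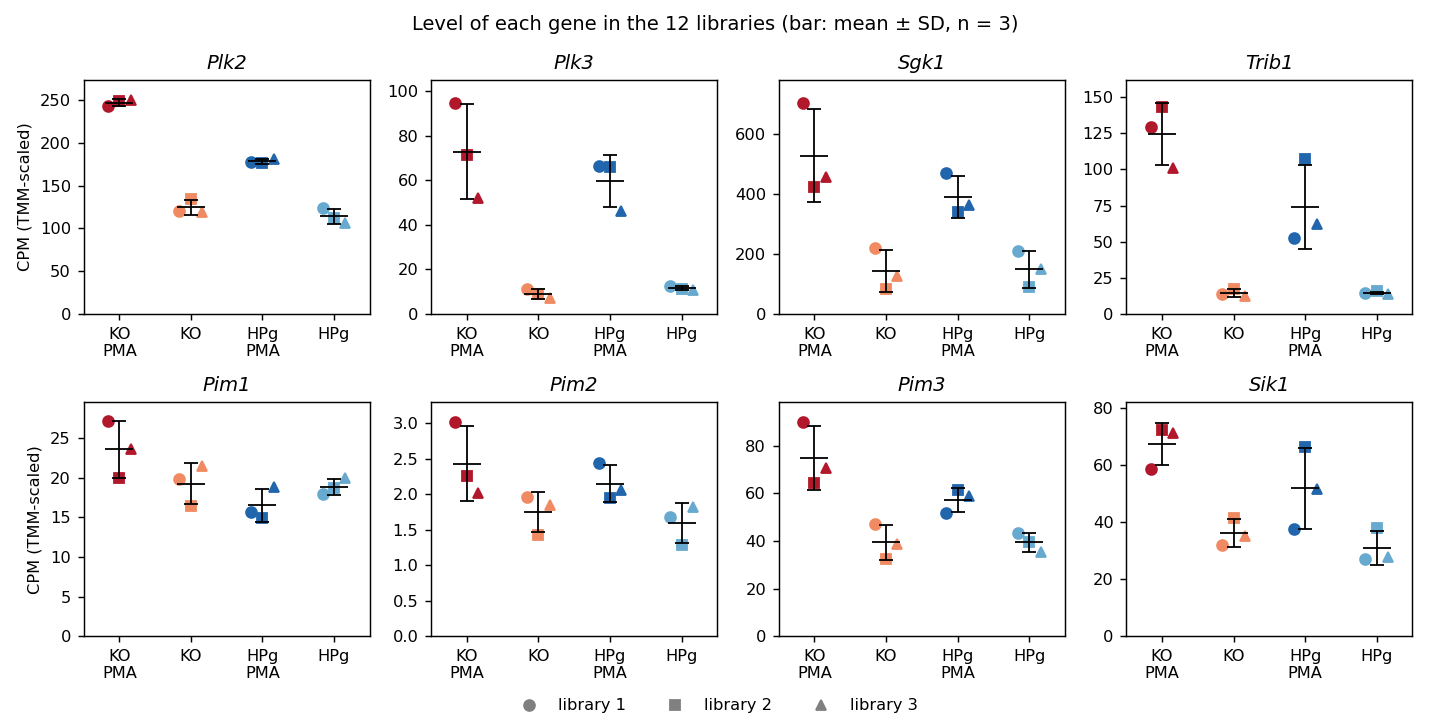
Level of each gene in the 12 libraries, in CPM on a linear axis from 0. Each point is 1 library, its shape gives the library number, and the bars are the mean and SD of 3 libraries. Plk2 in KO-labelled PMA libraries lies at 242.6 to 249.6 CPM, above its 3 HPg PMA libraries at 176 to 181.4 CPM, and Sgk1 follows the library number within each group.

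After PMA, 6 of the 8 genes were higher in KO-labelled cells and 3 of 8 in HPg cells, and none was lower, in the edgeR quasi-likelihood test with Benjamini-Hochberg adjustment over all genes (adjusted p below 0.05). Over all 16630 genes the test called 2.81% higher and 1.63% lower in KO-labelled cells (4.44% in either direction), and 2.53% higher and 0.92% lower in HPg cells (3.45%). The median log2 fold change of the 8 genes was 0.96 in KO-labelled and 0.7 in HPg cells, where the median of all genes was -0.02 in each. With the library number as a block, 6 of 8 were higher in each line, and none was lower. That fit called 13.4% of all genes in KO-labelled cells (6.79% higher and 6.56% lower) and 14.8% in HPg cells (8.62% higher and 6.19% lower). The libraries of PMA-treated and untreated cells did not overlap for 7 of the 8 genes in KO-labelled cells and 6 of 8 in HPg cells, and for 21.8% and 22.7% of all genes.

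Plk3, a polo-like kinase of the stress response, showed one of the largest increases. It had 94.63, 71.31 and 52.16 CPM in PMA-treated KO-labelled libraries 1, 2 and 3, against 11.05, 8.717 and 7.015 CPM in the untreated ones. In HPg cells it had 66.47, 66.05 and 46.29 CPM with PMA, against 12.65, 11.34 and 10.87 CPM without. All PMA-treated libraries lay above all untreated ones, and library 3 was the lowest of each group. The log2 fold change was 3.03 (SE 0.24, adjusted p = 1.48e-05) in KO-labelled and 2.36 (SE 0.23, adjusted p = 0.000137) in HPg cells. The neighbour Tctex1d4 overlaps Plk3 on the opposite strand in GENCODE M21, and its 25 to 83 counts per library are few beside the 986 to 10847 of Plk3.

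Plk2, which acts in centriole duplication and, in neurons, at synapses, rose less and with little spread. It had 242.6, 248.5 and 249.6 CPM in PMA-treated and 120.8, 134.5 and 118.8 CPM in untreated KO-labelled libraries. In HPg cells the values were 177.9, 176 and 181.4 CPM with PMA and 123.2, 111.9 and 106.5 CPM without. The 4 groups split by treatment with no overlap, and the 3 PMA-treated libraries of a line differed by a few percent (a coefficient of variation of 1.52% and 1.53%). The fold change was 1.98 (95% interval 1.69 to 2.32, adjusted p = 0.000158) in KO-labelled and 1.57 (1.34 to 1.84, adjusted p = 0.00534) in HPg cells with edgeR.

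Trib1 rose as far as Plk3. PMA-treated KO-labelled libraries held 129.3, 143.3 and 101 CPM, and untreated ones 13.47, 17.45 and 12.07 CPM. PMA-treated HPg libraries held 52.61, 107.2 and 62.17 CPM, and untreated ones 14.64, 15.55 and 14.02 CPM. The untreated libraries of both lines lay within a narrow range, while HPg PMA library 2 stood above the other HPg PMA libraries and within the range of the KO-labelled ones. The log2 fold change was 3.12 (SE 0.25, adjusted p = 2.1e-05) in KO-labelled and 2.33 (SE 0.25, adjusted p = 0.000272) in HPg cells, and 1.97 in HPg cells without HPg PMA library 2.

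Sgk1 had the highest levels and the widest spread, which followed the library number. PMA-treated KO-labelled libraries 1, 2 and 3 held 703.3, 421.9 and 455.6 CPM, and untreated ones 218.1, 83.36 and 125.2 CPM. In HPg cells they held 470.1, 338.8 and 362.2 CPM with PMA and 211, 88.01 and 148.5 CPM without. Library 1 was highest and library 2 lowest in all 4 groups, and the ratio of PMA-treated to untreated within a number was 3.22, 5.06 and 3.64 in KO-labelled and 2.23, 3.85 and 2.44 in HPg cells. With edgeR the log2 fold change was 1.89 (SE 0.37, adjusted p = 0.013) in KO-labelled cells and 1.39 (SE 0.37, adjusted p = 0.0615) in HPg cells, where it did not pass. With the library number as a block the SE was 0.16 in each line and the increase in HPg cells passed (1.47, adjusted p = 3.29e-05), and without KO library 3 the one in KO-labelled cells did not (1.81, adjusted p = 0.0723).

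The PIM kinases, survival kinases known in blood cells as targets of JAK and STAT signalling, did not move alike. Pim3 held 89.83, 64.21 and 70.67 CPM in PMA-treated and 46.98, 32.61 and 38.63 CPM in untreated KO-labelled libraries, and it rose 1.9-fold (95% interval 1.49 to 2.42, adjusted p = 0.00625). In HPg cells it held 51.62, 61.36 and 58.96 CPM with PMA and 43.41, 39.49 and 35.51 CPM without, a log2 difference of 0.54 that did not pass with edgeR (adjusted p = 0.0931). It passed with the block (adjusted p = 0.0119), with DESeq2 (0.0364) and with GC content and length offsets (0.74, adjusted p = 0.00156). Its groups did not overlap in either line.

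Pim1 passed the test in neither line. It held 27.21, 20.03 and 23.59 CPM in PMA-treated and 19.81, 16.42 and 21.54 CPM in untreated KO-labelled libraries, and 15.71, 14.95 and 18.88 CPM in PMA-treated and 17.98, 18.73 and 19.98 CPM in untreated HPg libraries. The groups overlapped in both lines, although the PMA-treated library had more than the untreated one of the same number in 3 of 3 pairs of KO-labelled and in 0 of 3 pairs of HPg libraries. The fold change was 1.23 (95% interval 0.981 to 1.53, edgeR adjusted p = 0.367) in KO-labelled and 0.874 (0.7 to 1.09, adjusted p = 0.564) in HPg cells. An antisense gene, Gm26885, overlaps Pim1 in GENCODE M21, and the strand setting of the counting was not given in the sources used here.

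Pim2 had the fewest counts of the 8 genes, with 153 to 377 per library. It averaged 2.43 ± 0.524 CPM in PMA-treated and 1.74 ± 0.28 CPM in untreated KO-labelled cells, and 2.15 ± 0.259 and 1.59 ± 0.278 CPM in HPg cells (SD, n = 3 each). PMA-treated libraries lay above untreated ones in both lines without overlap, but the edgeR intervals of the fold change reached below 1 (0.98 to 1.98, adjusted p = 0.351 in KO-labelled, and 0.948 to 1.92, adjusted p = 0.381 in HPg cells).

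Sik1, a kinase related to AMPK that holds back CRTC coactivators of CREB and is itself a CREB target, held 58.65, 72.14 and 71 CPM in PMA-treated and 31.92, 41.49 and 35.06 CPM in untreated KO-labelled libraries. In HPg cells it held 37.66, 66.09 and 51.44 CPM with PMA and 26.97, 37.91 and 27.85 CPM without. Library 2 was highest in each group and library 1 lowest, and in HPg cells the groups overlapped, since PMA-treated library 1 lay just under untreated library 2. The log2 fold change was 0.9 (SE 0.2, adjusted p = 0.025) in KO-labelled and 0.74 (SE 0.2, adjusted p = 0.0661) in HPg cells, and with the block it passed in HPg cells as well (0.73, adjusted p = 0.000528), as it did without HPg library 2 (adjusted p = 0.0437) or HPg PMA library 1 (0.029). The call in KO-labelled cells ended without KO library 1 (adjusted p = 0.0804), KO library 3 (0.108), KO PMA library 2 (0.094) or KO PMA library 3 (0.0858).

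**Figure D2:**
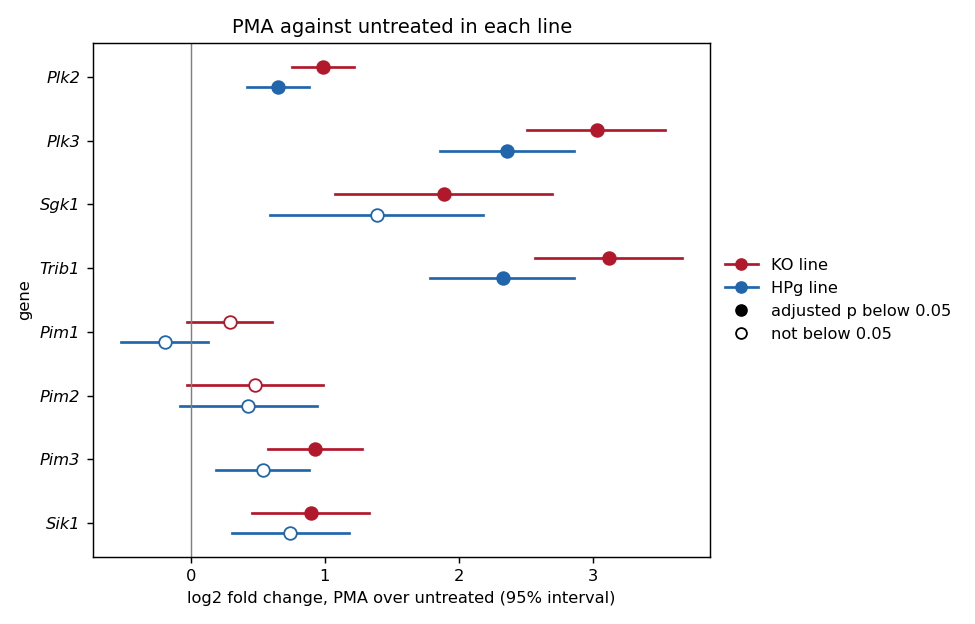
Log2 fold change of PMA-treated over untreated cells for each gene (horizontal axis) in the KO-labelled and the HPg line, with the 95% interval of the edgeR fit and filled points where adjusted p is below 0.05. Trib1 and Plk3 lie farthest to the right in both lines (3.12 and 3.03 in KO-labelled, 2.33 and 2.36 in HPg cells), and Pim1 lies nearest to 0.

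Without PMA none of the 8 genes differed between the lines with edgeR, where 1.32% of all genes did (0.806% higher and 0.511% lower). None had an unadjusted p below 0.05, where 14.3% of all genes did. DESeq2 called none of the 8, and its share of all genes is not given here. The median log2 fold change of KO-labelled over HPg cells was 0.01, as over all genes. The groups of untreated libraries overlapped for all 8 genes, and 18.5% of all genes had no overlap. Log2 fold changes ran from -0.38 for Plk3 to 0.23 for Sik1. The 95% interval was -0.1 to 0.36 for Plk2 and -0.85 to 0.71 for Sgk1, so the bounds on a difference were tight for Plk2 and wide for Sgk1. Plk3 was lower in the KO-labelled library of all 3 pairs with the same number (ratios of 0.873, 0.769 and 0.645), and in the blocked fit, which called 12.5% of all genes (7.08% higher and 5.44% lower), it passed as the only member (-0.41, adjusted p = 0.0354).

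With PMA 1 of the 8 genes was higher in KO-labelled than in HPg cells with edgeR, where 1.29% of all genes were called higher and 1.18% lower (2.47% in either direction). That gene was Plk2, with PMA-treated values 1.38-fold higher (95% interval 1.18 to 1.62, adjusted p = 0.0403) and ratios of 1.36, 1.41 and 1.38 in the 3 pairs. Its log2 fold change stayed between 0.45 and 0.48 when any 1 of the 6 libraries was left out. Adjusted p was then 0.0722 to 0.162, so the call ended in each of those fits. It also ended with scaling by library size only, with no filter, and in a fit to the compared groups only. All 8 genes had a log2 fold change above 0, as 51.3% of all genes did, with a median of 0.41 against 0.01 over all genes. The 8 genes were measured in the same libraries, so their signs are not independent. The groups did not overlap for Plk2, Pim1 and Pim3, 3 of 8, and for 25% of all genes.

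In the fit with the library number as a block, which called 18.6% of all genes (9.49% higher and 9.09% lower) between the PMA-treated lines, 4 of the 8 genes were higher in KO-labelled cells. They were Plk2 (0.47, adjusted p = 0.00332), Trib1 (0.79, adjusted p = 0.00253), Pim1 (0.52, adjusted p = 0.0063) and Sik1 (0.41, adjusted p = 0.0174). Without the block edgeR gave Trib1 0.75 (SE 0.24, adjusted p = 0.115), Pim1 0.52 (SE 0.15, adjusted p = 0.0875) and Sik1 0.38 (SE 0.2, adjusted p = 0.335). Trib1 passed without the block when HPg PMA library 2, the highest of its group, was left out (adjusted p = 0.0152). That was the lowest of the 6 edgeR fits that each left out 1 library, in which adjusted p of Trib1 reached up to 0.379. Pim3 (0.39), Sgk1 (0.43), Plk3 (0.29) and Pim2 (0.18) did not pass in either fit. Leaving out 1 library gave 0.23 to 0.48 for Pim3, 0.17 to 0.58 for Sgk1, 0.05 to 0.47 for Plk3 and 0.19 to 0.59 for Sik1. The noncoding RNAs Rpph1, Rn7sk and Rmrp took 12.5% to 19.2% of counts in KO-labelled and 9.69% to 16.2% in HPg libraries with PMA, and their part in these differences was not tested.

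**Figure D3:**
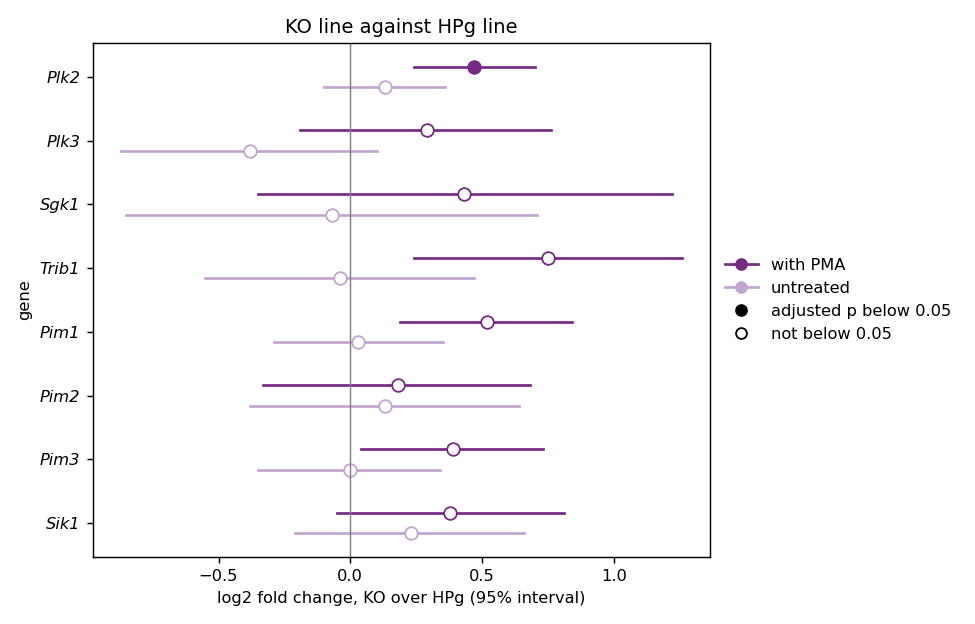
Log2 fold change of KO-labelled over HPg cells for each gene (horizontal axis), with PMA and untreated, with the 95% interval of the edgeR fit and filled points where adjusted p is below 0.05. Plk2 with PMA (0.47) is the only filled point, and the untreated estimates scatter around 0.

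Whether the response to PMA differed between the lines was asked with the interaction of line and PMA. No gene passed with edgeR, with or without the block, and 328 of 16630 genes (1.97%) had an unadjusted p below 0.05. Of the 8 genes 3 did in that edgeR fit, Trib1, Pim1 and Plk2, each with adjusted p = 1, and DESeq2 called none of the 8. The difference of log2 fold changes, KO-labelled minus HPg, was 0.79 for Trib1 (95% interval 0.07 to 1.51), 0.67 for Plk3 (-0.01 to 1.35), 0.49 for Pim1 (0.03 to 0.94), 0.34 for Plk2 (0.01 to 0.66) and 0.05 for Pim2 (-0.67 to 0.77). All 8 lay above 0, with a median of 0.44, and 52.2% of all genes did, with a median of 0.02. These genes were measured in the same libraries, so their signs are not independent. The share of all genes that DESeq2 called for the interaction is not given here.

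Within libraries of the same number, the ratio of PMA-treated to untreated CPM was higher in the KO-labelled line in all 3 pairs for 6 genes, Plk2, Plk3, Sgk1, Trib1, Pim1 and Pim3. For Plk3 these ratios were 8.57, 8.18 and 7.44 in KO-labelled and 5.25, 5.83 and 4.26 in HPg cells, with no overlap. For Trib1 they were 9.6, 8.21 and 8.36 in KO-labelled and 3.59, 6.89 and 4.43 in HPg cells, and number 2 differed least. Sik1 and Pim2 had 2 of 3 pairs in that direction. The share of all genes with 3 of 3 pairs in that direction is not given here, so these counts are descriptions only. The adjusted test of this difference was not passed by any of them.

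**Figure D4:**
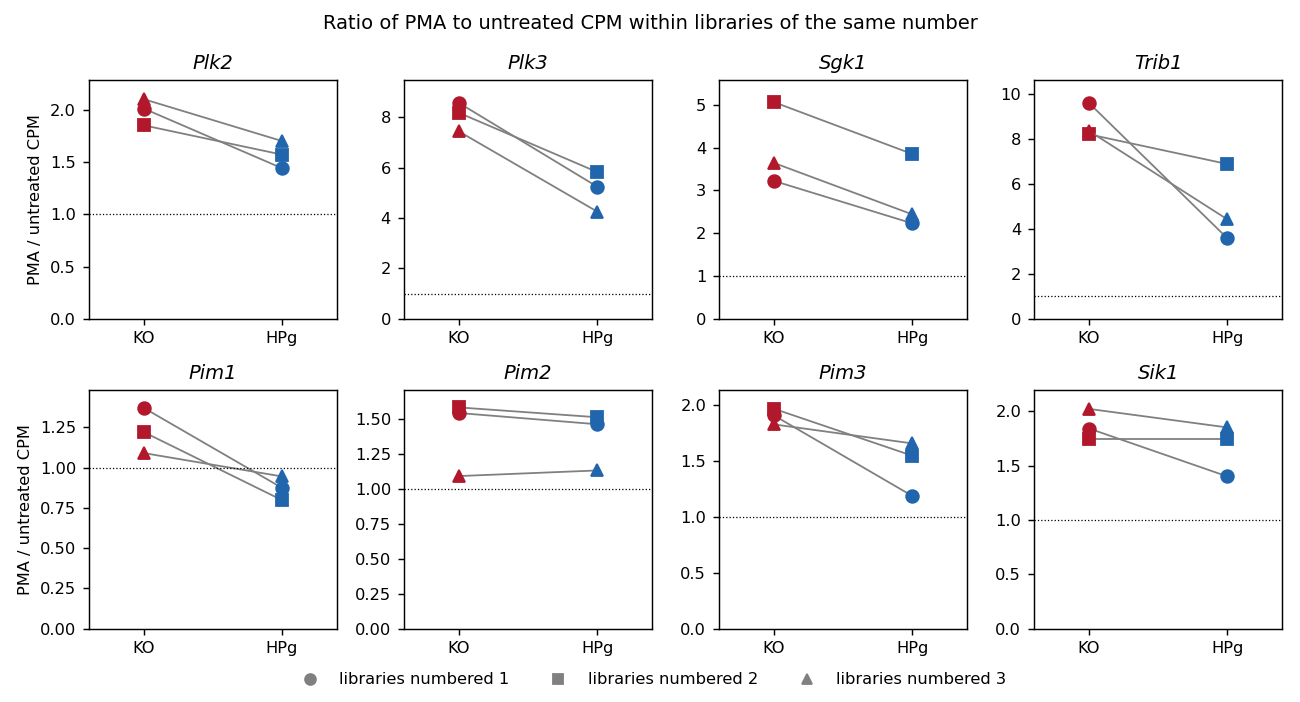
Ratio of PMA-treated to untreated CPM within libraries of the same number (vertical axis, linear from 0, dotted line at 1) in the KO-labelled and the HPg line, with a line joining each number. For Plk3 the 3 KO-labelled ratios (7.44 to 8.57) lie above the 3 HPg ratios (4.26 to 5.83), and for Pim1 they lie on opposite sides of 1.

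Across the 12 libraries the log2 CPM of Trib1 followed those of Plk2 and Plk3 (Pearson r of 0.96 each), while Pim1 had r of 0.13 to 0.46 with the other 7 genes. These are descriptions over libraries that share treatment and library number. Among 11127 genes with a mean of at least 1 CPM, those most like Trib1 were Mafk (r = 0.997), a small MAF protein, Dusp5 (0.996), a phosphatase of ERK, and Atf3 (0.992), a stress transcription factor. Those most like Plk3 were Brd2 (0.99), Ier2 (0.989) and Dusp6 (0.984), another ERK phosphatase. Plk2 was most like Pvr (0.984), the cell cycle inhibitor Cdkn1a (0.977) and Myc (0.972), and Sik1 most like Etv3 (0.989), the survival gene Mcl1 (0.976) and Bahcc1 (0.974). For Sgk1 they included Tgif1 (0.978) and Arl4c (0.972), for Pim3 they were Rnf25, Map3k11 and Tfe3 (0.955 to 0.98), for Pim2 Vmp1, Gem and Polm (0.916 to 0.933) and for Pim1 Frmd8, Fam180a and B9d2 (0.891 to 0.921).

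The closest relatives of these genes did not pass the test with PMA. Of 9 paralogs 8 were tested, and edgeR called 0 in KO-labelled and 0 in HPg cells. At an unadjusted p below 0.05 there was none in KO-labelled cells, where 15.9% of all genes were, and 1 in HPg cells, where 17.4% were. It was Plk4, the kinase of centriole assembly (0.13 in KO-labelled cells, adjusted p = 0.759, and 0.32 in HPg cells, adjusted p = 0.259). The blocked fit called Plk4 (adjusted p = 0.04) and Sik2 (adjusted p = 0.0146) higher in HPg cells, where it called 8.62% of all genes higher. The mitotic kinase Plk1 had -0.09 in KO-labelled and -0.22 in HPg cells, and the pseudokinases Trib2 and Trib3 had 0.08 and 0.3 in KO-labelled and 0.21 and 0.03 in HPg cells. Sgk3 had -0.24 and 0.02, and Sik3 0.11 and 0.28, in the same order of lines. Sgk2 had at most 12 counts in a library, and Plk5 at most 5 and was not tested.

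In the pathways around these kinases, the inducible transcription factors rose and most signalling components did not pass. Of 16 serum- and phorbol ester-inducible transcription factors 13 were higher with PMA in each line, with a median log2 fold change of 3.62 in KO-labelled and 2.93 in HPg cells, and Fosl1 (4.44 and 3.47) and Egr3 had the smallest p. Egr3 averaged 38.4 ± 3.94 CPM in PMA-treated and 0.156 ± 0.0411 CPM in untreated KO-labelled cells, and 16.7 ± 4.75 and 0.0405 ± 0.0235 CPM in HPg cells (SD, n = 3 each), so its fold rests on very few untreated counts. With the block 14 of the 16 were higher in KO-labelled and 13 in HPg cells. That fit called 6.79% of all genes higher and 6.56% lower in KO-labelled cells, and 8.62% higher and 6.19% lower in HPg cells. Of 21 tested genes of the cascade from protein kinase C to ERK edgeR called 0 in either line, and the smallest p was that of Nras (0.39 in KO-labelled, adjusted p = 0.154, and 0.46 in HPg cells, adjusted p = 0.0967). At an unadjusted p below 0.05 the cascade had 1 of 21 genes in KO-labelled and 4 of 21 in HPg cells, beside the 15.9% and 17.4% of all genes, and the blocked fit called 1 higher in KO-labelled, and 4 higher and 1 lower in HPg cells.

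Around SIK1, 2 of 18 genes of the CREB and CRTC list were higher in each line, the clock gene Per1 (2.14 in KO-labelled and 1.67 in HPg cells) and the nuclear receptor Nr4a2 (0.95 and 0.93). With the block the list had 2 higher in KO-labelled cells, and 5 higher and 1 lower in HPg cells. For this and the following lists, the blocked fit called 6.79% of all genes higher and 6.56% lower in KO-labelled cells. In HPg cells it called 8.62% higher and 6.19% lower. Without the block edgeR called 2.81% of all genes higher in KO-labelled and 2.53% in HPg cells. Around TRIB1, 1 of 8 genes was higher in each line, Cebpb, which encodes the transcription factor C/EBPβ. It averaged 140 ± 19.6 CPM in PMA-treated and 49.6 ± 5.76 CPM in untreated KO-labelled cells, and 107 ± 23.9 and 51.2 ± 9.49 CPM in HPg cells (SD, n = 3 each, edgeR adjusted p = 0.000632 and 0.009). With the block this list had 1 higher in KO-labelled cells, and 2 higher and 1 lower in HPg cells. Around PIM, 3 of 16 genes of the JAK, STAT and PIM substrate list were higher in KO-labelled and 1 in HPg cells, led by Cdkn1a (1.89 and 1.51) and Stat3. Stat3 had 0.59 in KO-labelled cells (adjusted p = 0.0337) and 0.49 in HPg cells, where it passed with the block (adjusted p = 0.0866 without it and 0.0043 with it). The blocked fit had 3 of this list higher in KO-labelled cells, and 2 higher and 1 lower in HPg cells. Around SGK1, 1 of 14 genes, Per1, was higher in each line, and the substrate gene Ndrg1 had 0.48 and 0.37. Ndrg1 passed with the block in KO-labelled cells (adjusted p = 0.105 without it and 0.0249 with it), where that list then had 2 higher and 2 lower. Around PLK2 and PLK3, 3 of 12 genes of the p53 list were higher in KO-labelled and 2 in HPg cells, with Cdkn1a and the p53 inhibitor Mdm2 (0.6 and 0.72) in both. With the block 4 were higher and 1 lower in KO-labelled cells, and 4 were higher in HPg cells.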

How the data were processed

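RNA-seq of ribosomal RNA-depleted, directional, paired-end libraries was used, per the labels' protocols. Deposited values are whole-number counts for each Ensembl gene, not normalized by the authors, judging from the values. The submitters' processing notes name cutadapt 1.11, STAR 2.5.0a, featureCounts 1.4.6-p3 of Subread and the mm9 build. The annotation release, the strand setting and the choice of reads or fragments were not given in the sources used here. Symbols were matched by Ensembl ID to GENCODE M21 (32620 of 37310 IDs), which is on GRCm38 and gave lengths and structure. Motifs and sequences come from RefSeq on GRCm38.p6.

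Genes were kept by filterByExpr defaults (minimum count 10, minimum total 15). The edgeR 4.0.16 quasi-likelihood F-test (R 4.3.3, TMM factors, robust) was fitted to all 12 libraries with a coefficient per group, and p-values were adjusted by Benjamini-Hochberg over 16630 genes and called below 0.05. SE is the log2 fold change divided by the square root of F. CPM are TMM-scaled. Log2 CPM used a prior count of 2. The procedure was tested on simulated counts drawn independently for each library, with no effect shared by library number. That simulation does not cover the pairing of libraries described below. Permuting 3 against 3 libraries cannot give p below 0.1.

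Libraries of a group differed by more than sampling noise (chi-square per degree of freedom 104.1 to 689.2). Same-numbered libraries deviated together from their group means in all 18 pairs (r 0.159 to 0.558, and -0.517 to 0.163 in the 36 other pairs). The pairing comes from these data and the numbers in the labels, so values from a fit that blocks on the number stand beside a result of the 8 genes whose call they change, and beside list counts with PMA. DESeq2 1.42.0, other scalings, filters, sample sets and corrections for GC content and transcript length (known for 94.8% of tested genes) were tried. All 8 genes are named, list genes by unadjusted p (up to 2 per list, paralogs in full), like genes as the 3 with highest r, of which 1 is not reported here. Members and lists were chosen with earlier results of these data known.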

Additional observations from a re-analysis of the deposited data

How the results depend on the processing

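There was 1 line per genotype with 3 libraries per group, and Pim2 had the fewest counts of the 8 genes. Members called with PMA in HPg cells numbered 3, where 3.45% of all genes were called. They numbered 6 with DESeq2 (7.34% of all genes) and 6 with the replicate block (14.8%). With GC content and length offsets they numbered 5 (3.79%), and with block and offsets together 6 (13.4%). Between PMA-treated lines the count was 1, but 0 when scaled by library size only, 0 with no filter, 0 with the compared groups only, 2 without the 4 libraries numbered 2, 3 with DESeq2 and 4 with the block, with or without the offsets. Of all genes, the main fit called 2.47% there and the block alone 18.6%, and the share with DESeq2 is not given here. Between untreated lines the count was 0, but 1 with the block, with or without the offsets. There the main fit called 1.32% of all genes and the block alone 12.5%. Leaving out 1 library gave 3 to 4 for PMA in HPg, 4 to 6 for PMA in KO-labelled cells, 0 to 0 untreated, 0 to 1 with PMA and 0 to 0 for the interaction. Among the 8 genes the block changed no other call than those given. Sik1 with PMA in KO-labelled cells was not called when scaled by library size only (0.77, adjusted p = 0.0526), a scaling that moved the median of all genes there to -0.14.

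Direction changed only in values that were not called. Pim3 between untreated lines (0) became 0.01 with library size only or a filter of 1 CPM, 0.04 with upper-quartile factors or the offsets (also blocked) and 0.12 without the libraries numbered 2. The interaction of Pim2 (0.05) became -0.04 with library size only and -0.1 with the offsets, blocked or not. With 1 library left out, values between untreated lines ran from -0.53 to 0.26 for Sgk1, -0.22 to 0.07 for Trib1, -0.06 to 0.12 for Pim1, 0 to 0.25 for Pim2 and -0.16 to 0.11 for Pim3. Pim2 ran from -0.01 to 0.29 between PMA-treated lines and from -0.13 to 0.18 in the interaction, and Sik1 from -0.03 to 0.37 in the interaction. The cause was not tested.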

Other observations

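Among the pathway genes, 4 were called between the lines with edgeR in these lists outside the inducible transcription factors. Over all 16630 genes the test called 1.32% between untreated and 2.47% between PMA-treated lines. The p53 list had 1 of 12 genes called untreated and 2 of 12 with PMA. The CREB and CRTC list had 1 of 18 and the SGK1 list 1 of 14 untreated, and both had 0 with PMA. The cascade to ERK had 0 of 21 in both comparisons. Rap1gap, which encodes a GTPase-activating protein for RAP1, averaged 4.08 ± 0.126 CPM in KO-labelled and 8.51 ± 1.41 CPM in HPg cells with PMA, and 4.18 ± 0.253 and 9.2 ± 1.3 CPM untreated (SD, n = 3 each). It was lower in both comparisons (log2 fold change -1.06, adjusted p = 0.00764 with PMA, and -1.14, adjusted p = 0.00612 untreated). Hdac9, a class IIa deacetylase that SIK kinases phosphorylate, was higher in untreated KO-labelled cells, with 20.1 ± 0.998 CPM against 10 ± 1.15 CPM in untreated HPg cells (1, adjusted p = 0.0221). Mtor was lower in untreated KO-labelled cells, with 123 ± 9.4 CPM against 176 ± 11.6 CPM in untreated HPg cells (-0.52, adjusted p = 0.0448), and Mdm2 was lower in PMA-treated ones, with 84.6 ± 1.47 CPM against 114 ± 9.8 CPM in HPg cells (-0.44, adjusted p = 0.0434). With the library number as a block the calls between lines were more. That fit called 9.49% of all genes higher and 9.09% lower with PMA, and 7.08% higher and 5.44% lower untreated. The p53 list then had 3 higher and 2 lower with PMA and 2 higher and 3 lower untreated, of 12 genes, and the inducible transcription factors had 10 of 16 higher with PMA in place of 2.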
